A study of Homo sapiens with 18 samples.

Results

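U87 (SCARNA5) and U88 (SCARNA6) are small Cajal body-specific RNAs (scaRNAs) whose genes lie in introns of ATG16L1. They were chosen by gene, as the U87 row and the U88 row of the small RNA table, and make up 2 of its 2462 rows. The rule did not use their values, but earlier results of these data were known when it was made. The table holds 18 small RNA libraries made from HEK293T, an established line of human embryonic kidney origin, either from the cells or from the extracellular vesicles (EVs) they release. Cells were wild type (WT), ATG7-/- (clone F2) or ATG12-/- (clone D9), and cells of all 3 genotypes had been kept without serum for 24 h. The 6 groups (cells and EVs of each genotype) had 3 libraries each, which the labels call biological replicates. Each knockout is 1 clone, so the knocked-out gene and the clone cannot be told apart, and p-values measure the spread between these libraries. The mRNAs of ATG7 and ATG12 are not analysed here, so the knockouts themselves were not checked.

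As background, scaRNAs gather in Cajal bodies, nuclear compartments where spliceosomal snRNAs mature, and guide the modification of those snRNAs. A C/D box directs ribose methylation and an H/ACA box directs pseudouridylation. U87 and U88 are composite scaRNAs, which carry both box types in 1 molecule, and such intronic RNAs are trimmed from the intron of their host transcript. The host's protein, ATG16L1, binds the ATG12-ATG5 conjugate and places it where LC3 is attached to lipid during autophagy. ATG7 is the activating enzyme of both ATG12 and LC3.

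In GRCh38, with GENCODE release 29, ATG16L1 (ENSG00000085978.21) spans chr2:233210051-233295674 on the plus strand. SCARNA5 (ENSG00000252010.1, chr2:233275727-233276002, plus strand, 276 bases) lies in the intron between exons 9 and 10 of the 18 exons of transcript ATG16L1-203. It starts 948 bases after the upstream exon in an intron of 2789 bases. SCARNA6 (ENSG00000251791.1, chr2:233288676-233288940, plus strand, 265 bases) lies in the intron between exons 12 and 13. It starts 5922 bases after the upstream exon in an intron of 7100 bases and ends 913 bases before the next exon. U87 is in RefSeq also a synonym of the unrelated SNORD87, which has a row of its own in the table under its other name, HBII-276. The transcript sequences from GENCODE release 29 are printed to show how alike the pair are and where they part, 5′ to 3′ with the C box letters ATGATGA and the last CTGA (the D box letters) in capitals.
U87: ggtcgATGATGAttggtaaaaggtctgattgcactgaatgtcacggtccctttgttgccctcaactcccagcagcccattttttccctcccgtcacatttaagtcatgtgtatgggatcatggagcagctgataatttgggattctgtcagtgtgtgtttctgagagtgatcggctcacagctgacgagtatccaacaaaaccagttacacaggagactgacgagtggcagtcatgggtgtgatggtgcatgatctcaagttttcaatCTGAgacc
U88: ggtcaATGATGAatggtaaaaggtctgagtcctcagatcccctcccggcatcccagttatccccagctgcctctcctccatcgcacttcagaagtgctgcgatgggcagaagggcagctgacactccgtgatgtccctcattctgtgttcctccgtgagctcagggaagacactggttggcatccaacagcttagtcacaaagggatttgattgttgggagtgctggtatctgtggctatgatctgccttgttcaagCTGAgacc

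The C box letters stood at bases 6 to 12 of each RNA, and 4 bases followed the last CTGA in each. ATGATGA was found in 19.8% of 1004 GENCODE snoRNA and scaRNA transcripts read on their own strand, and in 2.67% of 35116 RefSeq promoter windows of 276 bases on either strand. On 1 strand of those windows ATGATGA was found in 1.43%. CTGA was found in 71.3% of those transcripts, and in 69.5% of those windows on 1 strand and 89.4% on either. A global alignment paired 258 positions, of which 175 (67.8%) held the same base. The longest shared run was 15 bases, at bases 14 to 28 of both. For the other composite scaRNAs on the list, U85 and U89, the same alignment paired 250 positions, of which 162 (64.8%) held the same base. U87 or U88 set against U85 or U89 paired only 12 to 29 positions. None of the 227 windows of 50 bases in U87 or the 216 in U88 occurred in a GENCODE transcript of another gene (0 genes), so a full-length 50-base read would tell the members apart.

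The libraries held 1188388 to 1804089 reads in cells and 1881080 to 3382605 in EVs. Values are normalised reads, that is, reads divided by the size factor of the library, and 1 read is worth 0.477 to 1.89 of them. All 6 HEK293T-typical microRNAs on the list had reads in each group, with a summed level of 1836 to 2132 normalised reads in WT cells. Of 5 blood-cell microRNA rows, 3 were at 0 in the cells of each genotype, miR-142-3p and miR-142-5p always among them, and all 5 had reads in the EVs of each genotype. Their summed level was 87.5 to 126 in WT EVs, 174 to 253 in ATG7-/- EVs and 243 to 324 in ATG12-/- EVs, and its part in the results below was not tested. In bulk libraries like these, fewer vesicles carrying an RNA and less of it in each vesicle cannot be told apart.

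In normalised reads, with the deposited size factors, U87 was most abundant in WT EVs and lowest in knockout EVs. Scaled to library totals instead, WT EVs and the cells of the 3 genotypes had similar means (27.2 to 30.7 RPM, reads scaled to the library total), and knockout EVs were again lowest. In WT EVs it stood at 82.4, 81.6 and 80.2 normalised reads (57, 59 and 55 reads), with a mean of 81.4 ± 1.09 (SD, n = 3). ATG7-/- EVs had 14.5, 15.2 and 9.28 (11, 13 and 7 reads), mean 12.99 ± 3.23. ATG12-/- EVs had 17.9, 14.6 and 22.6 (13, 11 and 12 reads), mean 18.4 ± 4.04. All 3 WT EV libraries lay far above all 6 knockout EV libraries. In cells U87 was at 31.2, 30.3 and 22.6 in WT (49, 46 and 31 reads), mean 28.1 ± 4.72. It was at 32.1, 30.3 and 25.7 in ATG7-/- cells (39, 37 and 36 reads), mean 29.4 ± 3.31. ATG12-/- cells had 25.1, 26.7 and 18.9 (39, 56 and 27 reads), mean 23.6 ± 4.14. The cell groups overlapped one another. In descending order of the mean, WT EVs did not overlap the next group, and each later neighbour (ATG7-/- cells, WT cells, ATG12-/- cells, ATG12-/- EVs, ATG7-/- EVs) overlapped the one before it.

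U88 was most abundant in WT cells and lower in every other group. WT cells had 27.4, 24.4 and 20.4 normalised reads (43, 37 and 28 reads), mean 24.1 ± 3.49. ATG7-/- cells had 7.41, 16.4 and 11.4 (9, 20 and 16 reads), mean 11.7 ± 4.49. ATG12-/- cells had 10.3, 12.4 and 11.2 (16, 26 and 16 reads), mean 11.3 ± 1.06. No knockout cell library reached the lowest WT cell library. WT EVs had 18.8, 16.6 and 10.2 (13, 12 and 7 reads), mean 15.2 ± 4.46. ATG7-/- EVs had 3.96, 1.17 and 2.65, mean 2.59 ± 1.40, from 3, 1 and 2 reads. ATG12-/- EVs had 5.52, 3.98 and 3.77, mean 4.42 ± 0.953, from 4, 3 and 2 reads. By mean, with the deposited size factors, WT cells stood above the next group with no overlap. WT EVs and the cells of both knockouts overlapped as neighbours. Both knockout EV groups lay below them with no overlap and overlapped each other. Scaled to library totals instead, WT cells were again highest (23.8 ± 3.41 RPM, SD, n = 3). On that scale the mean of WT EVs (5.18 ± 1.26) was below those of ATG7-/- cells (12.4 ± 4.90) and ATG12-/- cells (13.1 ± 1.33). The knockout EV values rest on few reads, so their ratios are given below with counting intervals, which cover counting error only.

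**Figure D1:**
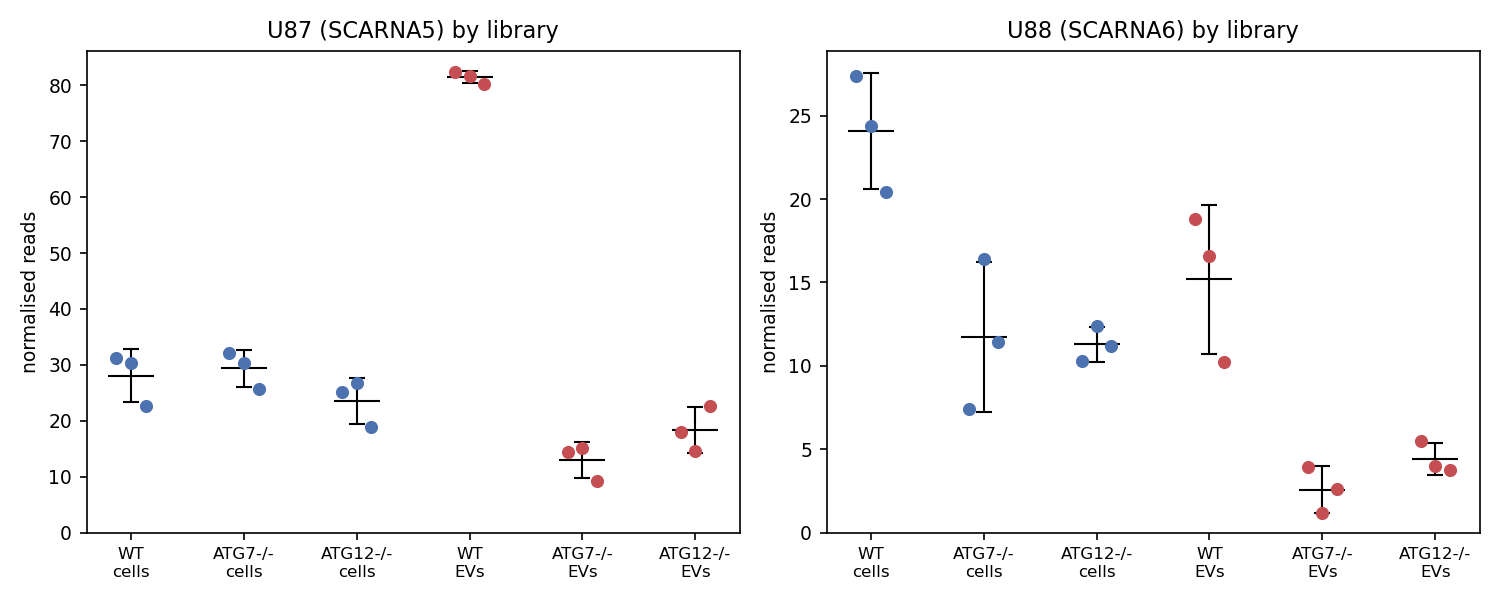
Normalised reads of U87 (left) and U88 (right) in each of the 18 libraries, in cells (blue) and EVs (red) of each genotype; points are libraries, black marks are means and bars the SD of 3 libraries. On this scale, set by the deposited size factors, U87 is highest in WT EVs (80.2 to 82.4) and U88 in WT cells (20.4 to 27.4).

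Set per length, WT cells gave nearly equal reads of the pair, 10.2 normalised reads per 100 bases of U87 and 9.09 of U88. How well each RNA was captured was not measured, so these values compare reads and not amounts of the RNAs. In WT EVs these levels were 29.5 and 5.74. Cells of the knockouts held 10.6 and 8.54 per 100 bases of U87 (ATG7-/- and ATG12-/-) and 4.43 and 4.26 of U88. Knockout EVs held 4.71 and 6.66 per 100 bases of U87 and 0.978 and 1.67 of U88. On this scale U87 exceeded U88 in all 6 groups, by the least in WT cells.

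The comparison of knockout with WT EVs asks how levels in EV libraries differ between genotypes. Neither the amount of RNA released nor LC3 conjugation was measured here. U87 fell in ATG7-/- EVs by 2.59 on the log2(normalised reads + 1) scale (SE 0.26, limma adjusted p = 1.92e-06). By reads, U87 was at 0.161 of the WT level, with an exact conditional 95% interval of 0.106 to 0.237. Of the 850 features tested in EVs, 62.5% were called in either direction at an adjusted p under 0.05, 28.9% were called lower, 33.5% higher, and 68% had groups that did not overlap. Counted from the lowest log2 change, U87 was at rank 53. U87 also fell in ATG12-/- EVs, by 2.11 (SE 0.26, limma adjusted p = 3.93e-05), to 0.220 of WT (0.149 to 0.317). In that comparison 43.6% of features were called, 21.1% lower and 22.6% higher, 52.7% did not overlap, and U87 was at rank 26 from the lowest. Both knockouts were compared with the same 3 WT libraries. The median change of all features was 0.11 in ATG7-/- and 0.049 in ATG12-/- EVs.

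U88 had a log2 change of -2.21 in ATG7-/- EVs (SE 0.48, limma adjusted p = 0.00120), at 0.166 of the WT level by reads (0.0568 to 0.403). In ATG12-/- EVs its change was -1.55 (SE 0.48, limma adjusted p = 0.0178), at 0.294 (0.123 to 0.630). U88 entered the EV tests through the WT libraries alone, since every knockout EV library was under the minimum of 10 normalised reads, so a feature like it had to come out lower and its calls add no support. With no minimum, its adjusted p in ATG12-/- EVs was 0.0939 in limma, above the threshold of 0.05. The ATG12-/- call also ended without WT EV replicate 1 (-1.39, limma adjusted p = 0.0578) or replicate 2 (-1.47, limma adjusted p = 0.0673).

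The EVs of the knockouts were also compared with each other. U87 was 0.48 higher in ATG12-/- than in ATG7-/- EVs on the log2 scale (95% interval -0.09 to 1.04, limma adjusted p = 0.152). U88 was 0.66 higher (-0.37 to 1.69, limma adjusted p = 0.281). Neither passed the test, in a comparison where 49.9% of features did, and the intervals leave room for a rise of over 1 on this scale.

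In cells U88 was lower in both knockouts, and no change of U87 passed the test. U88 fell by 1.03 in ATG7-/- cells (SE 0.29, limma adjusted p = 0.0260), to 48.4% of WT by reads (33.4 to 69.1%), where 16.8% of 853 features were called, 8.32% as lower, and 35.2% did not overlap. From the lowest log2 change it was at rank 28. In ATG12-/- cells U88 fell by 1.02 (SE 0.29, limma adjusted p = 0.0219), to 47.1% (33.6 to 65.4%), where 25.7% were called, 18.2% as lower, 48.5% did not overlap, and U88 was at rank 27. Its levels in the cells of the knockouts differed by 0.0076 (limma adjusted p = 0.990, 20% called). These U88 calls lay near the threshold. With library totals in place of size factors the changes were -0.94 and -0.81 (limma adjusted p = 0.0523 and 0.0774), and with no minimum the adjusted p was 0.0826 and 0.0672. Leaving out WT cell replicate 1, 2 or 3 or ATG7-/- replicate 1 or 3 ended the ATG7-/- call (-1.29 to -0.76 over all 6 omissions). Leaving out WT cell replicate 1 or 2 or ATG12-/- replicate 1 or 3 ended the ATG12-/- call (-1.13 to -0.93).

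U87 differed by 0.071 in ATG7-/- cells (95% interval -0.39 to 0.54, limma adjusted p = 0.849), which is 103% of WT by reads (79.3 to 134%). In ATG12-/- cells its change was -0.24 (-0.71 to 0.22, limma adjusted p = 0.442), which is 84.9% (65.6 to 110%). Between the knockouts the change was -0.32 (limma adjusted p = 0.320). The sign in ATG7-/- cells flipped to -0.43 with factors taken from microRNAs alone (limma adjusted p = 0.150), a scaling that shifted the overall median by -0.51, and to -0.071 without WT cell replicate 3.

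Comparing EVs with the cells of the same genotype, U87 was 1.52 higher on the log2 scale in WT EVs (SE 0.24, limma adjusted p = 6.74e-06), a ratio of 2.88 by normalised reads (2.27 to 3.65). Of 905 features, 81.8% were called in this comparison, 38.9% as higher. In ATG7-/- the sign was the opposite, and U87 fell by 1.14 from cells to EVs (SE 0.24, limma adjusted p = 0.000190, with 82.8% of features called, 42.8% lower). In ATG12-/- the change was -0.35 (SE 0.24, limma adjusted p = 0.191, with 80.3% of features called, 41.1% lower). U88 differed by -0.66 in WT (limma adjusted p = 0.106), and fell by 1.84 in ATG7-/- (limma adjusted p = 0.000101) and by 1.19 in ATG12-/- (limma adjusted p = 0.00592).

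The scale between EV and cell libraries decides these values. Library totals shifted the overall median by -1.44 in WT, -1.91 in ATG7-/- and -2.07 in ATG12-/-. On that scale U87 differed by 0.032 between WT EVs and cells (limma adjusted p = 0.909), U88 fell by 2.10 (limma adjusted p = 8.14e-06), and U87 fell by 2.34 in ATG12-/- (limma adjusted p = 1.32e-09). In RPM, U87 stood at 27.7 ± 4.76 (SD, n = 3) in WT cells and 28.1 ± 1.73 in WT EVs, against 3.41 ± 0.668 in ATG7-/- EVs and 4.92 ± 0.860 in ATG12-/- EVs. Its cells stood at 30.7 ± 0.660 in ATG7-/- and 27.2 ± 4.71 in ATG12-/-.

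A change in EVs beyond that in cells was tested as an interaction, which is the EV difference between knockout and WT minus the cell difference. For U87 it was -2.66 in ATG7-/- (SE 0.34, limma adjusted p = 1.85e-06), where 55% of 905 features were called, 28.7% lower. In ATG12-/- it was -1.87 (SE 0.34, limma adjusted p = 0.000564), where 26.4% were called, 12% lower. The interaction of U87 was called under all 11 alternatives in each knockout. For U88 it was -1.18 in ATG7-/- (95% interval -2.28 to -0.09, limma adjusted p = 0.0636) and -0.53 in ATG12-/- (limma adjusted p = 0.480), so neither passed the test. The ATG7-/- value of U88 passed the threshold with library totals (-1.25), TMM (-1.31) and edgeR (-1.76). It also passed without ATG7-/- cell replicate 1 (-1.45), WT EV replicate 3 (-1.43) or ATG7-/- EV replicate 1 (-1.45).

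**Figure D2:**
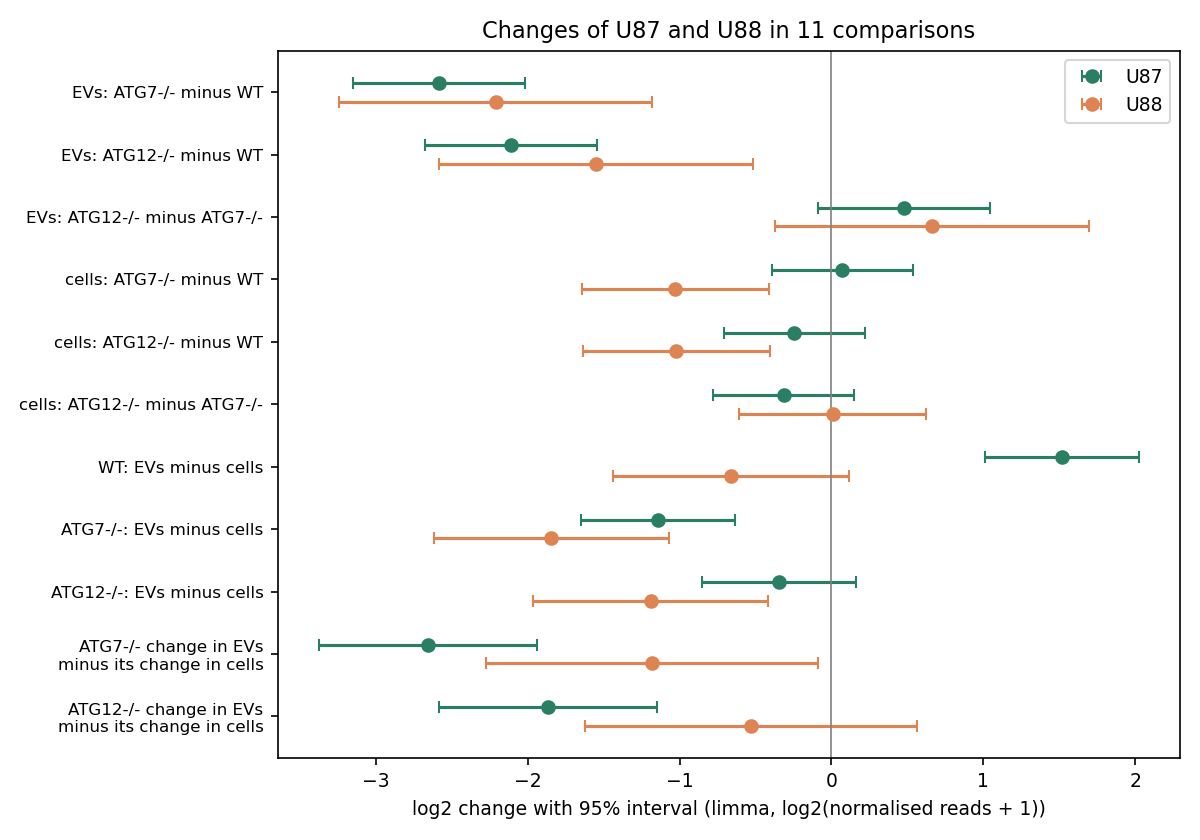
Log2 change of U87 (green) and U88 (orange) with its 95% interval in 11 comparisons, from limma on log2(normalised reads + 1). U87 departs from 0 in the knockout EVs (-2.59 and -2.11), and U88 in the cells of both knockouts (-1.03 and -1.02) as well.

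The ratio of U87 to U88 within a library does not depend on how libraries are scaled, apart from the pseudocount. The log2 ratio was 0.21 ± 0.08 (SD, n = 3) in WT cells, 1.31 ± 0.59 in ATG7-/- cells and 0.99 ± 0.26 in ATG12-/- cells. In EVs it was 2.39 ± 0.41 in WT, 2.01 ± 0.77 in ATG7-/- and 1.83 ± 0.42 in ATG12-/-. By pooled reads U87 outnumbered U88 by 1.17 to 1 in WT cells, 2.49 in ATG7-/- cells, 2.10 in ATG12-/- cells, 5.34 in WT EVs, 5.17 in ATG7-/- EVs and 4 in ATG12-/- EVs. By group mean, WT cells had the most even ratio and each EV group more U87 for each U88 than its cells, but ATG7-/- cell replicate 1 (1.98) exceeded 2 of the 3 ATG7-/- EV libraries (1.65 and 1.49).

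With 3 libraries against 3 the exact 2-sided permutation test cannot go below 0.1, and 7 such comparisons were made. The ratio was 1.10 higher in ATG7-/- than in WT cells and 0.78 higher in ATG12-/- cells, with no overlap and the smallest possible p in each (exact permutation p = 0.1, adjusted 0.175). It was 2.18 higher in WT EVs than in WT cells (exact permutation p = 0.1, adjusted 0.175). It was 0.84 higher in ATG12-/- EVs than in ATG12-/- cells (exact permutation p = 0.1, adjusted 0.175) and 0.70 higher in ATG7-/- EVs than in ATG7-/- cells, where libraries overlapped (exact permutation p = 0.3, adjusted 0.35). Between knockout and WT EVs it differed by -0.37 and -0.56 (exact permutation p = 0.6 and 0.3).

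Larger pools, chosen after seeing the data, gave 3 further tests. The 9 EV libraries exceeded the 9 cell libraries by 1.24 (exact permutation p = 0.000452, adjusted 0.00136). This test ignored genotype, although the mean ratio in cells differed between genotypes, so the libraries are not interchangeable replicates of EVs and cells. Within a genotype the exact permutation p was 0.1 in WT, 0.3 in ATG7-/- and 0.1 in ATG12-/-. The 6 knockout cell libraries, at 0.71 to 1.98, all exceeded the 3 WT cell libraries, at 0.14 to 0.30, by 0.94 on average (exact permutation p = 0.0238, adjusted 0.0357). That p is the smallest that 6 libraries against 3 can give. The cells of both knockouts had already been seen not to overlap WT cells, so this outcome was fixed by the choice of pool and adds no support. Knockout and WT EVs differed by -0.47 (exact permutation p = 0.310). Without any 1 of the WT cell libraries the cell difference was 0.91 to 0.99, with an exact permutation p of 0.0714, the smallest that 6 libraries against 2 can give.

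**Figure D3:**
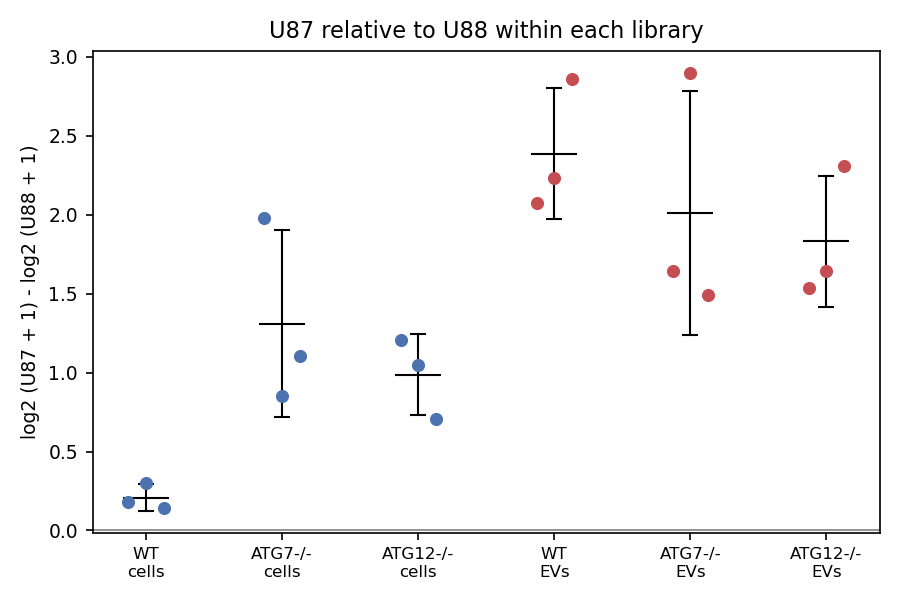
Log2 ratio of U87 to U88 in each library, with the mean and SD of 3 libraries. The grey line marks equal normalised reads. WT cells sit closest to the line (0.14 to 0.30), and all 6 knockout cell libraries lie above them (0.71 to 1.98).

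The members were next set beside the other RNAs of their class, from lists of composite (U85, U87, U88, U89), C/D and H/ACA Cajal body RNAs. These hold 24 rows at 22 loci, all of them tested. In ATG7-/- EVs 4 of 4 composite rows, 5 of 6 C/D rows (3 of 4 C/D loci, since 2 loci have 2 rows each) and 10 of 14 H/ACA rows were called lower and 0 higher, against 28.9% of all features lower. U85 was at -1.45 and U89 at -1.47. The other 20 loci had a median of -1.41, and U87 ranked 2nd lowest and U88 5th lowest among the 22. The call of U88, which entered through WT alone, is among the 4.

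In ATG12-/- EVs U87 was called lower. U88 was too, but it entered through WT alone and its call was lost with no minimum. U85 (-0.95, limma adjusted p = 0.0541) and U89 (-0.62, limma adjusted p = 0.292) were not called. Of the C/D rows 2 of 6 were lower, U91 and mgU12-22/U4-8, which share 1 locus (1 of 4 loci), and of the H/ACA rows 1 of 14 was lower and 1 higher (U93, 1.16), against 21.1% lower over all features. The other 20 loci had a median of -0.38. U87 ranked lowest of the 22 loci. U88 came 2nd, from 2 to 4 reads in each ATG12-/- EV library. Between the EVs of the knockouts, 16 of the other 20 loci were higher in ATG12-/- than in ATG7-/-, against 26.6% of all features, and 0 of 4 composite rows passed that test.

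In ATG7-/- cells 3 of 24 rows were lower (2 of 22 loci, or 9.09%, against 8.32% of all features), with a median of 0.058 over the other 20 loci, and U88 was the lowest of the 22 loci. In ATG12-/- cells 5 of 24 rows were lower (5 of 22 loci, or 22.7%, against 18.2% of all features), with a median of -0.19 over the other loci, and U88 was again the lowest. U85 fell by 0.75 there (limma adjusted p = 0.0335). The spliceosomal snRNAs include the RNAs whose modification scaRNAs guide. Of their 5 rows (U1, U2, U4, U5, U6), 3 were lower and 1 higher in ATG7-/- EVs, where 28.9% of all features were lower and 33.5% higher. In ATG12-/- EVs 1 was lower and 3 higher, where 21.1% were lower and 22.6% higher. U7, which acts in histone mRNA processing and was on the same list, fell in the EVs of both knockouts, by 0.68 and 0.89. In ATG12-/- cells U7 was lower too (-1.25, limma adjusted p = 3.66e-05), and in ATG7-/- cells it was not called (-0.34). U5 fell in the EVs of both knockouts as well, by 1.17 and 1.24. U6 went the other way and rose in the EVs of both, by 1.03 and 1.28. U1 and U2 were also called higher in ATG12-/- EVs (0.71 and 0.59).

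**Figure D4:**
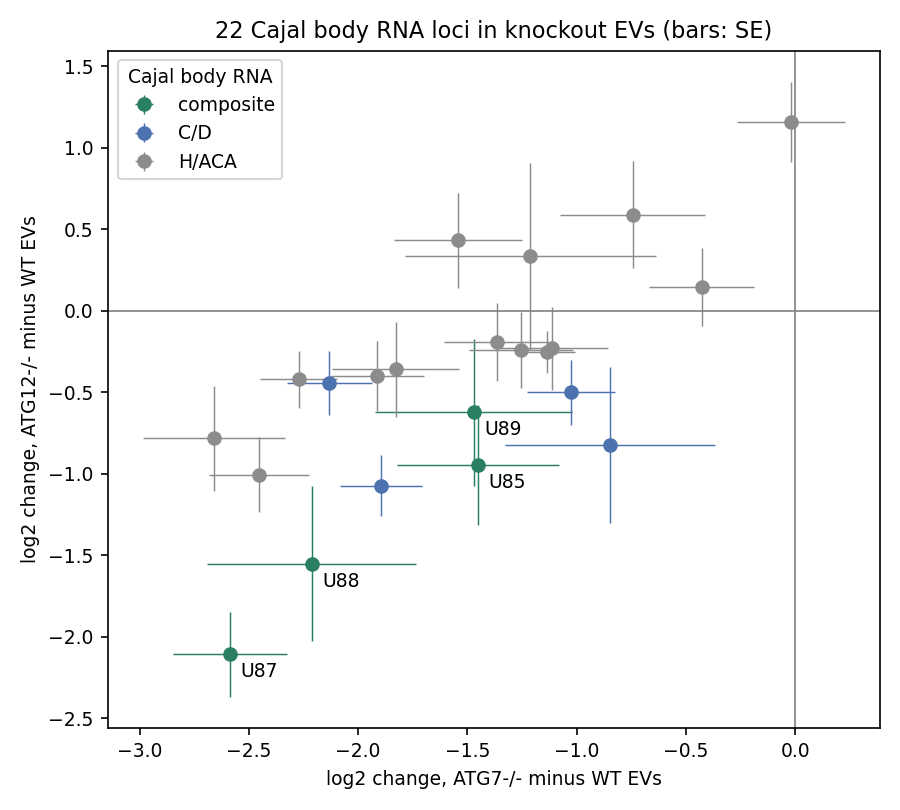
Log2 change of the 22 Cajal body RNA loci in ATG7-/- EVs (horizontal) and ATG12-/- EVs (vertical) against the same 3 WT EV libraries, with bars showing the SE. U87 is the lowest locus on the vertical axis (-2.11), and all 22 loci lie left of 0 (the highest at -0.021).

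Measured as a share of all reads from the 22 loci, U87 took 2.66 ± 0.297% in WT EVs (SD, n = 3), 1.50 ± 0.293% in ATG7-/- EVs and 0.819 ± 0.201% in ATG12-/- EVs. In cells its share was 0.952 ± 0.180% in WT, 0.959 ± 0.0781% in ATG7-/- and 0.921 ± 0.199% in ATG12-/-. U88 took 0.817%, 0.396% and 0.443% in WT, ATG7-/- and ATG12-/- cells, and 0.491%, 0.312% and 0.195% in the EVs. This measure was added after seeing the data. The U87 share was 1.50 percentage points lower in the 6 knockout than in the 3 WT EV libraries (exact permutation p = 0.0238, the smallest this design gives; adjusted 0.169 over 22 tests). The U88 share was 0.398 points lower in knockout cells (exact permutation p = 0.0238, adjusted 0.169). The groups did not overlap in either, and the smallest adjusted p that these 22 tests could give was 0.1, as 18 of them set 3 libraries against 3. In both cases each knockout alone did not overlap WT. The pooled p-values were therefore fixed by the choice of pool and add no support, and the 6 knockout libraries are not replicates of 1 condition.

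**Figure D5:**
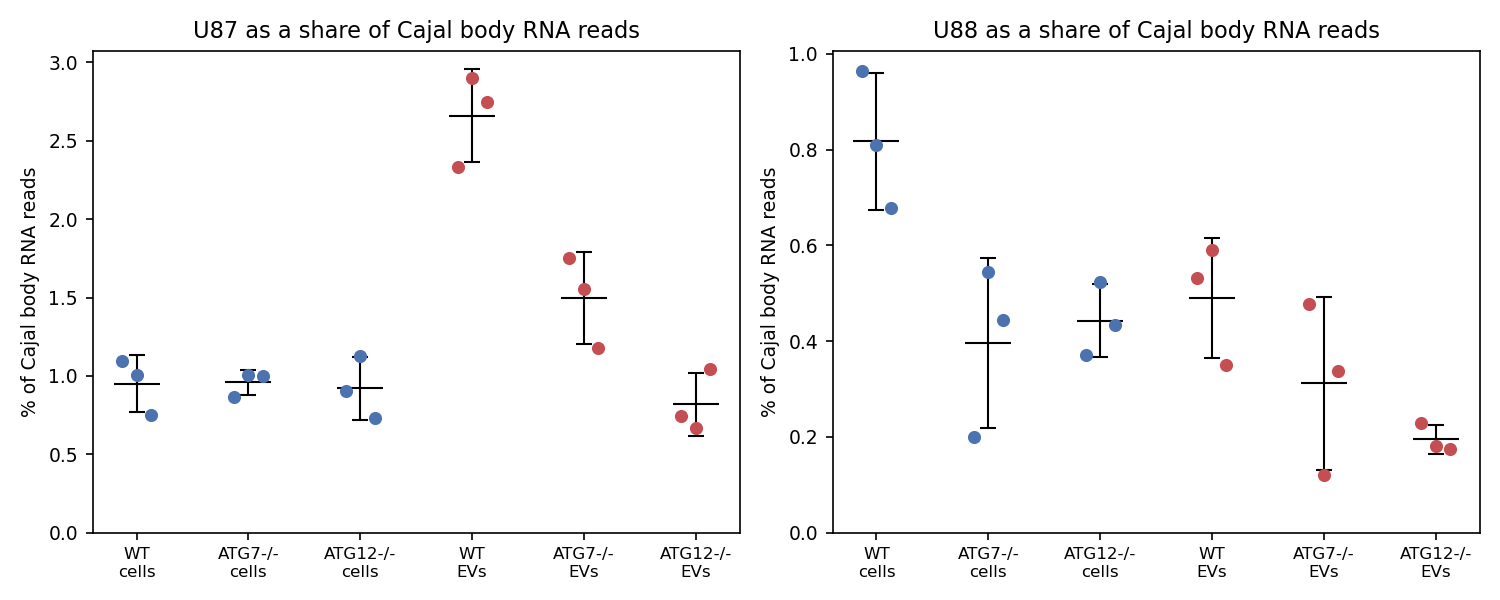
Share of all Cajal body RNA reads taken by U87 (left) and U88 (right) in each library, in percent, with the mean and SD of 3 libraries. The U87 share is highest in WT EVs (mean 2.66%) and the U88 share in WT cells (mean 0.817%).

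Features with the most similar pattern were ranked by Pearson r of log2(normalised reads + 1), as a description over libraries that share depth and normalisation. Over 18 libraries, U87 was nearest to ACA18 (0.934), U19 (0.925), ACA62 (0.914), ACA36B (0.869) and U15A (0.847). U88 was nearest to U85 (0.904), U38B (0.893), U62B (0.888), U62A (0.888) and U74 (0.886). Although they share a host gene, U88 was rank 37 of the features nearest to U87 (r = 0.622), and U87 was rank 252 of those nearest to U88. Over the 9 EV libraries, U87 was nearest to ACA37 (0.995), ACA33 (0.987), U51 (0.987), ACA18 (0.987) and U72 (0.985), and U88 was at rank 82 (0.895). U88 was nearest to U18A (0.952), U15B (0.937), HBII-82B (0.936), mgh18S-121 (0.936) and U71c (0.935) there. All of the nearest features except U85 are outside the Cajal body lists.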

How the data were processed

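Small RNA was measured by single-end 50 bp sequencing of libraries from total RNA, amplified for 12 cycles, per the labels' protocols. Cutadapt 2.3, Bowtie2 2.3, bedtools, DESeq2 and GRCh38/hg38 are named in the submitters' processing notes. The annotation, strand and treatment of multi-mapped reads are not given in the sources used here. The deposited signal values are reads divided by a size factor: 100.0% were whole multiples of the value of 1 read, within 1e-06. Reads were recovered from them.

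The main test was limma 3.58.1 on log2(value + 1), for features with at least 10 in at least 3 libraries, fitted in EVs, in cells or in all 18, and p-values were adjusted by Benjamini-Hochberg over every feature in the fit; called means an adjusted p under 0.05. The procedure was tested on simulated data. edgeR 4.0.16 on recovered reads called 250 higher and 258 lower in ATG7-/- EVs, and 188 and 187 in ATG12-/- EVs. DESeq2 1.42.0, other scalings, pseudocounts, minimums and left-out libraries were alternatives. Intervals of read ratios are exact conditional 95% intervals. Named features were the members, the fixed lists (the largest, H/ACA, with 14 rows) and the 5 nearest by r. The ranks of U88 and U87 were added. The members and lists were chosen with earlier results of these data known. Replicates differed by more than sampling noise (chi-square per degree of freedom 5.56 to 91.4).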

Additional observations from a re-analysis of the deposited data

Results flagged for a closer look

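U87 was picked out because its change from cells to EVs differed between genotypes by a test of the difference itself. The EV-minus-cell difference was 1.52 in WT on the log2 scale, -1.14 in ATG7-/- and -0.35 in ATG12-/-. The difference from WT was -2.66 in ATG7-/- (limma adjusted p = 1.85e-06) and -1.87 in ATG12-/- (limma adjusted p = 0.000564). U88 did not pass the same test. Both U87 differences use the same WT libraries. The ATG7-/- difference was not particular to U87. There 17 of 22 Cajal body RNA loci were called lower (77.3%, against 28.7% of all features), U85 and U89 among them. U87 ranked 3rd lowest of these loci. In ATG12-/- 2 of 22 loci were lower and 1 higher (9.09% lower, against 12% of all features), and U87 ranked lowest.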

How the results depend on the processing

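Of 228 values of the members under 11 alternatives other than leaving out a library, 212 kept direction and call (113 of 118 for U87, 99 of 110 for U88). U87 in EVs was called throughout, from -2.96 to -2.28 (ATG7-/-) and -2.54 to -1.90 (ATG12-/-). A minimum of 50 gave no value for U88, or for U87 in the cell comparisons. Calls changed as follows, with the cause not tested where the setting does not show it. With no minimum, more features were tested and U88 gave -1.55 (ATG12-/- EVs), -1.03 and -1.02 (ATG7-/- and ATG12-/- cells), none called. Library totals gave U88 -0.94 and -0.81 in cells, U87 0.032 and U88 -2.10 for WT EVs against cells, U87 -2.34 for ATG12-/- EVs against cells, and U88 -1.25 for the ATG7-/- interaction. TMM gave U87 -0.55 for ATG12-/- EVs against cells and U88 -1.31 for the ATG7-/- interaction; edgeR gave -0.65 and -1.76. A pseudocount of 5 gave U88 -0.54 for WT EVs against cells and -0.0054 between the cells of the knockouts (reversed). TMM from microRNAs reversed U87 in ATG7-/- cells (-0.43).

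Leaving out 1 library gave U88 -1.80 to -1.39 in ATG12-/- EVs, -1.29 to -0.76 in ATG7-/- and -1.13 to -0.93 in ATG12-/- cells, and -0.26 to 0.26 between the cells of the knockouts. It gave -1.45 to -0.86 for the U88 interaction in ATG7-/- and -0.071 to 0.16 for U87 in ATG7-/- cells. The ratio in knockout against WT cells was 0.77 to 1.03. The share differences of U87 were -0.112 to 0.0615 points in cells and -1.67 to -1.38 in EVs, and of U88 -0.467 to -0.324 and -0.308 to -0.187. The U87 share in cells reversed without ATG7-/- replicate 1 (0.00238), ATG12-/- replicate 3 (0.0300), WT replicate 1 (0.0615) or WT replicate 2 (0.0153).

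Counts over all features also moved: with TMM from microRNAs 20 were higher and 515 lower in ATG7-/- cells (72 and 71 as reported), 18 and 250 in ATG12-/- cells (64 and 155), 127 and 312 in ATG7-/- EVs (285 and 246), and 48 and 319 in ATG12-/- EVs (192 and 179). Same-numbered replicates did not pair (correlations of deviations -0.22 to 0.19, 5 of 27 over 0.1, 10 of 27 best with their own number). A replicate block changed no call of the members (U87 -2.59 in ATG7-/- EVs, limma adjusted p = 4.30e-05) and gave 278 higher and 245 lower in ATG7-/- EVs. U88 in knockout EVs, at 1 to 4 reads a library, is limited by depth.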
